A study of Mus musculus with 14 samples.

Results

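The genes flanking Trpv4 on mouse chromosome 5 were examined in livers of mice that lacked Trpv4. Trpv4 encodes the calcium-permeable ion channel TRPV4 and lies on the minus strand at chr5:114622152-114658421 (GRCm38, the build whose coordinates were deposited). Distances were taken between lowest coordinates, which are called gene starts here whatever the strand. Every gene whose start lay within 10 Mb on either side, between chr5:104622152-124622152, was taken. Trpv4 itself, Mvk, Orai1, Atp2a2, Cox6a1 and all genes whose names begin with Oas were left out by the rule. Of the 660 genes of the window, 643 remained, among the 54532 genes of the liver count table. They comprised 280 protein-coding genes, 88 TEC genes (transcribed stretches whose status is still open), 80 lincRNAs, 66 processed pseudogenes, 53 antisense genes and smaller classes. The question was whether members differed in TRPV4-KO livers from both WT livers and livers of WT mice given a TRPV4 antagonist, and whether such members lay near the deleted gene.

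A gene is commonly deleted by homologous recombination in embryonic stem cells, and the deleted allele then travels with the chromosome around it. When mice carrying the allele are crossed to another strain, DNA close to the allele is exchanged least often, so a stretch of the stem cell strain's chromosome can persist beside it. Genes in such a stretch can differ in sequence or level without any part played by the deleted gene, and they are then called passenger genes. An antagonist blocks the protein but leaves the chromosome alone, which is why both comparisons were read side by side.

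WT mice were Piezo1 fl/fl animals, TRPV4-KO mice were global knockouts (Trpv4-/-), and the GSK219 group were WT mice that received 10 mg/kg of the TRPV4 antagonist GSK2193874 by gavage every day. All mice had 100000 KPCY cells placed in the pancreas. These are tumor cells with mutated P53 and a yellow fluorescent protein, and they carry functional TRPV4. Livers were taken on day 20. There were 2 WT, 3 TRPV4-KO and 3 GSK219 livers, from mice of both sexes aged 8 to 12 weeks, and the sources used here do not say whether untreated WT mice received the carrier of the drug. Neither the strain of the TRPV4-KO mice nor how closely they were related to the WT mice is given there. The Piezo1 fl/fl allele is described for mice called WT, as the GSK219 mice also were, and not for TRPV4-KO mice. The loss of Trpv4, the chromosome around it and any other difference of descent therefore cannot be told apart in TRPV4-KO livers. Total counts per liver lay between 15567031 and 17395299, each group had exactly 1 liver with over 1000 counts of Xist, and pairs of livers in a group differed by 17 to 115 times the sampling noise (chi-square per degree of freedom), so none was taken for a repeat of another. TRPV4-KO replicate 3 was that liver in its group and stood apart from the other TRPV4-KO livers in several results below. Hepatocyte genes (Alb, Apoa1, Cyp2e1, Hnf4a and Ttr) were present in every liver, with a summed level of 46800 to 60300 CPM in WT, 71000 to 91100 CPM in TRPV4-KO and 69800 to 79600 CPM in GSK219 livers (counts scaled to the library total, with TMM normalization). WT livers lay below all others in this sum, most of which was Alb. Of the 5 genes only Alb had its TRPV4-KO livers above both WT livers.

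Trpv4 was checked first. The gene had 43 and 53 counts in WT livers, 15, 5 and 23 in TRPV4-KO livers and 20, 30 and 36 in GSK219 livers. TRPV4-KO livers were below both WT livers, while TRPV4-KO replicate 3 overlapped the GSK219 livers. The log2 fold change of TRPV4-KO against WT was -1.71 (SE 0.50, adjusted p = 0.16 by edgeR), which was not called. Counts of the whole gene were deposited, and whether they fell on the deleted part was not tested.

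Sequences are shown first for the 2 called members that have near-identical copies elsewhere in the genome, since a copy can take a gene's reads. In all, 82 of 241 tested members (34%), 4 of them called, shared at least 5% of their 50-base words with another gene. Rplp0, which encodes the P0 protein of the ribosomal stalk, lies 0.94 Mb distal of Trpv4 (chr5:115559467-115563727, plus strand). Gm8730 on chromosome 8 (chr8:102864845-102865798, minus strand) and Gm9625 on chromosome 13 (chr13:67810246-67811200, plus strand) are annotated as processed pseudogenes, copies of a spliced mRNA put back into the genome. Over the 954 coding bases of Rplp0, Gm8730 was identical at 942 and Gm9625 at 930 (GENCODE M21 transcripts). Of the 12 differences of Gm8730, 8 were shared by Gm9625. The longest run without a difference was 170 bases for Gm8730 and 193 bases for Gm9625. Several coding stretches of 210 bases tie for the most differences between Rplp0 and Gm8730. The first of them runs from coding position 293 to 502, counted from 1 at the first base of the start codon. Capitals mark in Rplp0 every base at which either copy differs, and in each copy the bases that differ from Rplp0.
Rplp0: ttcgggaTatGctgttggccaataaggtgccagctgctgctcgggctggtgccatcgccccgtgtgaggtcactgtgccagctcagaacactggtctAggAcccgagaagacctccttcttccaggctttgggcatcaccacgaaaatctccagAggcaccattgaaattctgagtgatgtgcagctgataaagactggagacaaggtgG
Gm8730: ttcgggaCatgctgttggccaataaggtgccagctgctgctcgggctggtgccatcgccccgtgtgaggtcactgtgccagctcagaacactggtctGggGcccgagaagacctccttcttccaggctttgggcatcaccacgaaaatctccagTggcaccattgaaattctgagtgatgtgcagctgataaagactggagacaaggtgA
Gm9625: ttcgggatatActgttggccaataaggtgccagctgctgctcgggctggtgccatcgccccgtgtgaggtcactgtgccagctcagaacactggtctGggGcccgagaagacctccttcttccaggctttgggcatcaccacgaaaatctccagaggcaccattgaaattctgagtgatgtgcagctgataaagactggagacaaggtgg
In this stretch Gm8730 carries T300C, A390G, A393G, A447T and G502A, and Gm9625 carries G303A, A390G and A393G, with the base of Rplp0 written first.

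Pebp1 encodes the Raf kinase inhibitor protein and lies 2.66 Mb distal (chr5:117282654-117287625, minus strand). Gm10819 (chr19:16267061-16267621, minus strand) and Gm9824 (chr10:29030128-29030688, plus strand) are processed pseudogenes of it. Of 561 aligned coding bases, Gm10819 was identical at 559 and Gm9824 at 555, and each had a gap of 3 bases. The first stretch of the same length with both differences of Gm10819 runs from coding position 282 to 491.
Pebp1: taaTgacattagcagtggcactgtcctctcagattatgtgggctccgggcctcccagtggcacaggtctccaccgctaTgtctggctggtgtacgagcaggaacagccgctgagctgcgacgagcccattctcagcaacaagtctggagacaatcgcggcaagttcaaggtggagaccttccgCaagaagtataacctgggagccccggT
Gm10819: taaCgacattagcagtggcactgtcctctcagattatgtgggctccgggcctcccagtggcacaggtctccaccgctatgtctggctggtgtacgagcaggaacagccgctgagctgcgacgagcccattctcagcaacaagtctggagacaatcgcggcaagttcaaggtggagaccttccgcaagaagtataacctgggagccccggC
Gm9824: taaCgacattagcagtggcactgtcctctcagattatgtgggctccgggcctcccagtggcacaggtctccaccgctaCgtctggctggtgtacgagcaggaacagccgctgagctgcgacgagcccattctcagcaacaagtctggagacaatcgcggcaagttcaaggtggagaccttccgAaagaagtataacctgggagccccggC
Both copies carry T285C and T491C, and Gm9824 also carries T360C and C465A here. Identity of this kind matters below, since reads of 1 gene can be counted on its copy wherever their sequences are the same or where a base in the mouse differs from the reference.

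Of the 643 members, 203 had no count in any liver and 199 had too few for the filter, which left 241 tested members, 205 of them protein-coding. A member was called at an adjusted p under 0.05 by edgeR's quasi-likelihood test over all 15118 tested genes, with no minimum fold. Against WT, 5 members were called, 3 higher and 2 lower in TRPV4-KO livers, which is 2.07% of those tested. Over all tested genes the share called was 0.291%, with 0.126% higher and 0.165% lower. Against GSK219, 5 members were called again, 3 higher and 2 lower, where the share of all tested genes was 0.106%, with 0.0595% higher and 0.0463% lower. All 5 were called in both comparisons in the same direction, against 0.106% of all tested genes. Both comparisons share the TRPV4-KO livers, so the second is not independent of the first. Against the mean of WT and GSK219, 5 members were called, where the share of all tested genes was 0.265%. The 5 genes made up 11.4% of all genes called against WT and 31.2% of those called against GSK219. With DESeq2 in place of edgeR, 13 members were called against WT, which was 5.39% of members beside 5.51% of all genes, and 9 against GSK219, which was 3.73% beside 0.902%. The share of members against WT was thus near that of all genes under DESeq2. In both comparisons DESeq2 called 7 members (2.9%), beside 0.668% of all genes.

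**Figure D1:**
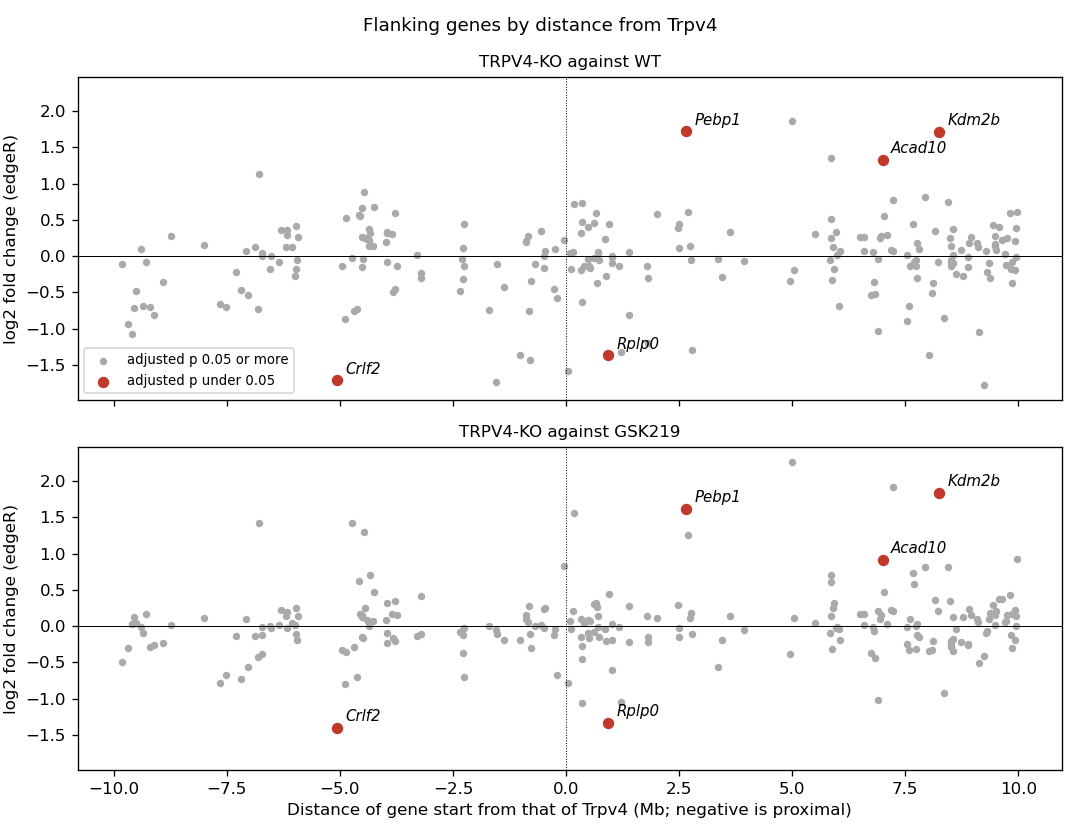
Log2 fold change (edgeR) of each of the 241 tested members, as points, against the distance of its start from that of Trpv4 in Mb, for TRPV4-KO against WT (top) and against GSK219 (bottom). The 5 called members, in red, lie between 5.07 Mb proximal and 8.25 Mb distal of Trpv4. Several members that were not called had log2 fold changes of like size against WT, such as Gltp (-1.59) and Hcar2 (-1.78).

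Pebp1, Kdm2b and Acad10 were the 3 members higher in TRPV4-KO livers. Pebp1, whose protein binds Raf and restrains the MAP kinase cascade, had 116 and 124 CPM in WT livers, 384, 409 and 394 CPM in TRPV4-KO livers, and 136, 114 and 139 CPM in GSK219 livers. All TRPV4-KO livers were far above all others. The level was 3.30-fold higher than in WT (log2 fold change 1.72, SE 0.13, adjusted p = 0.0031 by edgeR) and 3.06-fold higher than in GSK219 (1.61, SE 0.11, adjusted p = 0.0011 by edgeR). Kdm2b, a histone demethylase that binds unmethylated CpG islands and recruits Polycomb complexes, lies 8.25 Mb distal (chr5:122870665-122989823, minus strand). Its level was 13.5 and 13.5 CPM in WT, 44.3, 44.7 and 43.9 CPM in TRPV4-KO, and 12.8, 14.1 and 10.3 CPM in GSK219 livers. The 3 TRPV4-KO livers were nearly equal and stood apart from the rest. The level was 3.28-fold higher than in WT (1.71, SE 0.15, adjusted p = 0.0043 by edgeR) and 3.57-fold higher than in GSK219 (1.84, SE 0.13, adjusted p = 0.0011 by edgeR).

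Acad10, a mitochondrial member of the acyl-CoA dehydrogenase family, lies 7.00 Mb distal (chr5:121621026-121660514, minus strand). It had 30.1 and 32.2 CPM in WT, 73.7, 78.9 and 82.2 CPM in TRPV4-KO, and 38.2, 48.0 and 38.4 CPM in GSK219 livers. The groups did not overlap, with GSK219 livers between WT and TRPV4-KO. The level was 2.51-fold higher than in WT (1.33, SE 0.14, adjusted p = 0.0097 by edgeR) and 1.88-fold higher than in GSK219 (0.91, SE 0.12, adjusted p = 0.044 by edgeR). The difference between GSK219 and WT was 0.42 (SE 0.13, adjusted p = 0.54 by edgeR). Of the 5 called members Acad10 was the closest to the threshold. Its log2 fold change against GSK219 lay between 0.858 and 1.03 over the alternatives. Its call against GSK219 was lost under 8 of 14 alternatives, with an adjusted p of up to 0.275 by edgeR, among them the fit of these 2 groups alone (adjusted p = 0.099 by edgeR).

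Rplp0 and Crlf2 were the 2 members lower in TRPV4-KO livers. Crlf2 encodes the receptor chain for the cytokine TSLP and lies 5.07 Mb proximal (chr5:109554709-109558993, minus strand). It had 20.9 and 20.2 CPM in WT, 6.51, 6.74 and 5.56 CPM in TRPV4-KO, and 15.9, 19.0 and 14.7 CPM in GSK219 livers. TRPV4-KO livers were below all others without overlap. The level was 3.27-fold lower than in WT (log2 fold change -1.71, SE 0.16, adjusted p = 0.0058 by edgeR) and 2.64-fold lower than in GSK219 (-1.40, SE 0.15, adjusted p = 0.014 by edgeR). Over the alternatives the log2 fold change against GSK219 lay between -1.48 and -1.29. The call against GSK219 was lost under 7 of 14 alternatives, with an adjusted p of up to 0.0939 by edgeR, among them the fit of these 2 groups alone (adjusted p = 0.064 by edgeR). Rplp0 had 411 and 400 CPM in WT, 171, 164 and 137 CPM in TRPV4-KO, and 401, 403 and 386 CPM in GSK219 livers. WT and GSK219 livers were close together, and the TRPV4-KO livers lay below all of them. The level was 2.58-fold lower than in WT (-1.37, SE 0.12, adjusted p = 0.0049 by edgeR) and 2.53-fold lower than in GSK219 (-1.34, SE 0.11, adjusted p = 0.0035 by edgeR). In the fit of WT and TRPV4-KO livers alone, the call of Rplp0 against WT was lost (adjusted p = 0.0513 by edgeR). GSK219 and WT differed by -0.03 (SE 0.12) in Rplp0 and by -0.31 (SE 0.16, adjusted p = 0.67 by edgeR) in Crlf2.

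**Figure D2:**
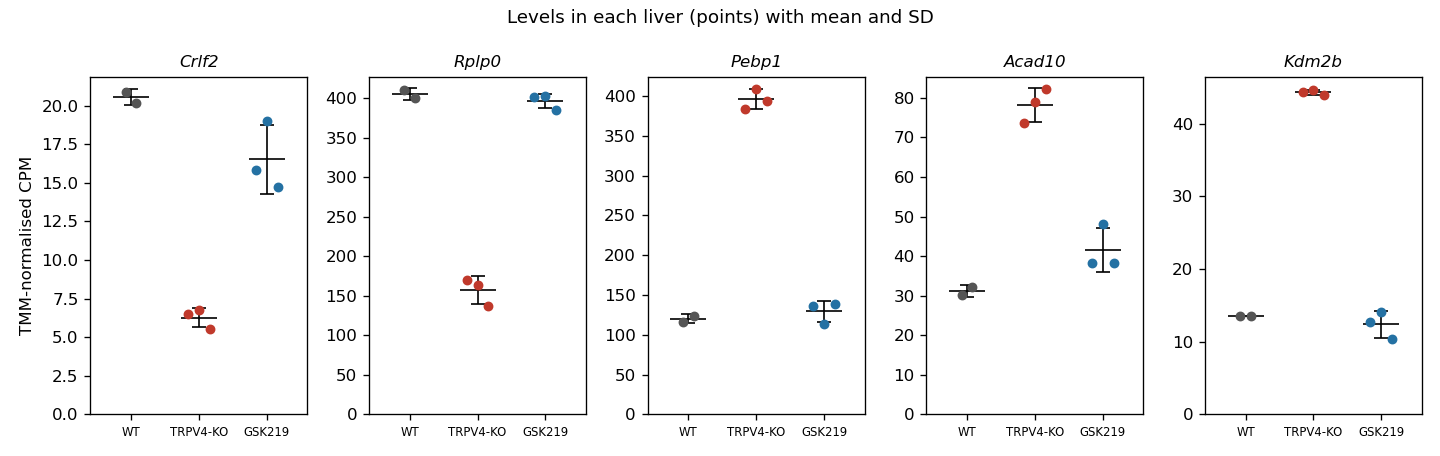
TMM-normalized CPM of the 5 called members in each liver (points) with group mean and SD (bars) for 2 WT, 3 TRPV4-KO and 3 GSK219 livers. In every panel the TRPV4-KO livers lie apart from the other 5, below them for Crlf2 and Rplp0 and above them for Pebp1, Acad10 and Kdm2b.

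The calls against WT rest on both WT livers, and that of Acad10 was also lost without TRPV4-KO replicate 2. Without WT replicate 1 or without WT replicate 2, no member was called against WT by edgeR, beside 0.0255% and 0.0189% of all genes tested, and the log2 fold changes of the 5 genes kept their sign and lay within 0.1 of the values above. Without TRPV4-KO replicate 3, 22 members were called against WT, 7 against GSK219 and 7 in both. These were 9.21%, 2.93% and 2.93% of the 239 members tested, beside 8.64%, 0.944% and 0.903% of all genes in that fit, so the share against WT was near that of all genes.

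The lower count of Rplp0 was accompanied by counts on its copies. Gm8730 had 29 and 29 counts in WT and 26, 28 and 29 in GSK219 livers, but 3277, 3074 and 2871 counts in TRPV4-KO livers. Gm9625 had at most 6 counts in any WT or GSK219 liver and 406, 363 and 305 in TRPV4-KO livers. Both pseudogenes were called in both comparisons. Rplp0 itself fell from between 6379 and 6868 counts in the other livers to 2698, 2528 and 2363. Of the counts on the 3 genes together, Rplp0 held between 99.5% and 99.6% in each WT and GSK219 liver. It held 42.3% in TRPV4-KO replicate 1 (95% Clopper-Pearson interval 41.1 to 43.5), 42.4% in replicate 2 (41.1 to 43.6) and 42.7% in replicate 3 (41.4 to 44.0). These intervals cover counting error only, and the split was nearly the same in the 3 TRPV4-KO livers.

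Summed over Rplp0, Gm8730 and Gm9625, the level was 413 and 402 CPM in WT, 403, 386 and 321 CPM in TRPV4-KO, and 403, 405 and 388 CPM in GSK219 livers. The groups overlapped. The log2 fold change of the sum was -0.14 against WT (SE 0.13, adjusted p = 0.63 by edgeR) and -0.11 against GSK219 (SE 0.11, adjusted p = 0.96 by edgeR). Rplp0 was thus called alone and not when summed with its copies. Reads were not analysed here, and which locus made them was not tested. Rplp0 was the only tested member to share a 50-base word with a gene elsewhere that was called in both comparisons.

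For Pebp1 the sum behaved otherwise. Gm9824 had 339 and 207 counts in WT, 576, 611 and 476 in TRPV4-KO and 106, 351 and 327 in GSK219 livers, and Gm10819 had 44 and 43, then 108, 114 and 129, then 31, 47 and 45. Both copies were highest in the TRPV4-KO livers, as Pebp1 was. The sum of the 3 genes was higher in TRPV4-KO livers by 1.65 against WT (SE 0.12, adjusted p = 0.0022 by edgeR) and by 1.57 against GSK219 (SE 0.10, adjusted p = 8e-04 by edgeR), so Pebp1 was called with and without its copies.

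**Figure D3:**
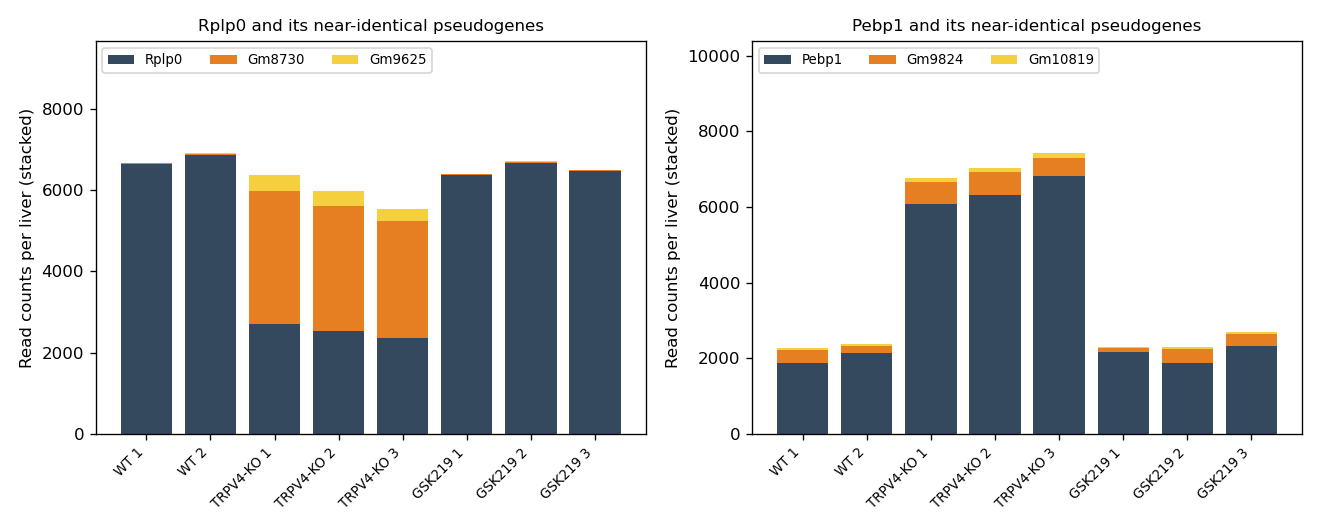
Read counts per liver on Rplp0 with its pseudogenes Gm8730 and Gm9625 (left) and on Pebp1 with Gm9824 and Gm10819 (right), stacked. The Rplp0 stacks are of similar height in all 8 livers but are split between Rplp0 and Gm8730 in the 3 TRPV4-KO livers, whereas the Pebp1 stacks are taller in the TRPV4-KO livers.

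Acad10 shares 16.8% of its 50-base words with the neighboring Acad12, an acyl-CoA dehydrogenase gene on the same strand. Acad12 had 11.8 CPM ± 2.79 in WT (SD, n = 2), 14.3 ± 1.82 in TRPV4-KO (SD, n = 3) and 12.9 ± 0.79 in GSK219 livers (SD, n = 3), and it was not called. Summed, both genes were higher in TRPV4-KO livers by 1.11 against WT (SE 0.12, adjusted p = 0.013 by edgeR) and by 0.77 against GSK219 (SE 0.11, adjusted p = 0.060 by edgeR), and the call against GSK219 was lost. Kdm2b overlaps the end of Rnf34, a ubiquitin ligase gene on the opposite strand, by 627 bases. Whether counting used strand is not given in the sources used here, so reads in the overlap cannot be told apart. Rnf34 had 10.3 and 11.7 CPM in WT, 11.4, 9.13 and 10.6 CPM in TRPV4-KO, and 7.55, 9.85 and 9.56 CPM in GSK219 livers, so that the groups overlapped. Gm12397, a processed pseudogene on chromosome 4, holds 5.13% of the 50-base words of Kdm2b, about as many as Rnf34 with 5.23%. It had 0.43 and 0.35 CPM in WT, 1.20, 1.68 and 1.39 CPM in TRPV4-KO, and 0.63, 0.36 and 0.30 CPM in GSK219 livers. Its TRPV4-KO livers were above all others, as those of Kdm2b were, and it was not called (1.78 against the mean of WT and GSK219, SE 0.35, adjusted p = 0.12 by edgeR). Crlf2 shared no word with another gene at the 5% minimum.

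The tested neighbors of the called genes were read in the same way. Gcn1l1, whose protein activates the kinase Gcn2 on stalled ribosomes, starts just beyond Rplp0. It had 106 and 121 CPM in WT, 165, 159 and 142 CPM in TRPV4-KO, and 110, 117 and 117 CPM in GSK219 livers. The TRPV4-KO livers were above all others, with a log2 fold change of 0.44 against the mean of WT and GSK219 (SE 0.09, adjusted p = 0.13 by edgeR), so it was not called. On the other side of Rplp0, Pxn, the focal adhesion adaptor paxillin, had a log2 fold change of -0.25 (SE 0.15). Beside Pebp1, Taok3, a stress kinase gene, had 0.05 (SE 0.13), and Vsig10 had 0.93 (SE 0.40, adjusted p = 0.36 by edgeR). Beside Kdm2b, A930024E05Rik, which overlaps the 5′ end of Kdm2b on the opposite strand and was at a low level, had 0.56 and 0.64 CPM in WT, 0.38, 0.26 and 0.35 CPM in TRPV4-KO, and 0.76, 0.42 and 0.72 CPM in GSK219 livers. Its TRPV4-KO livers were below all others, the opposite direction to Kdm2b, with -0.89 (SE 0.41, adjusted p = 0.39 by edgeR). Next but one to Kdm2b, beyond Rnf34, Anapc5, a subunit of the anaphase-promoting complex, had 0.35 (SE 0.09, adjusted p = 0.20 by edgeR), with 85.7 and 75.5 CPM in WT, 99.96, 102 and 105 CPM in TRPV4-KO, and 81.0, 72.9 and 86.9 CPM in GSK219 livers. Beside Crlf2, 5430403G16Rik had -0.23 (SE 0.36) and Fgfrl1, a receptor of the fibroblast growth factor family, had 0.20 (SE 0.16). By edgeR none of these neighbors was called. DESeq2 called Gcn1l1 in both comparisons (adjusted p = 0.0249 against WT and 0.0462 against GSK219 by DESeq2) and Anapc5 against their mean (adjusted p = 0.0489 by DESeq2). Among genes next but one to a called gene, Anapc5 and Aldh2 (given below) had TRPV4-KO livers above all others. In Slc26a1, 4930522L14Rik, Sirt4, 1110006O24Rik, 9530046B11Rik, Wsb2, Atxn2 and Tmem120b, also next but one, TRPV4-KO livers overlapped the others. Of all tested genes, 6.44% had TRPV4-KO livers that did not overlap the others.

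Acad10 and its neighbor Brap, a ubiquitin ligase that binds BRCA1, are transcribed away from each other. Between the highest coordinate of Acad10 and the lowest of Brap lie 48 bases. The window from 250 bases before to 50 bases after the transcription start of Acad10 (chr5:121660461-121660760, minus strand, RefSeq, GRCm38.p6) thus holds both transcription starts. It is shown with the bases between the genes in capitals.
Acad10 promoter: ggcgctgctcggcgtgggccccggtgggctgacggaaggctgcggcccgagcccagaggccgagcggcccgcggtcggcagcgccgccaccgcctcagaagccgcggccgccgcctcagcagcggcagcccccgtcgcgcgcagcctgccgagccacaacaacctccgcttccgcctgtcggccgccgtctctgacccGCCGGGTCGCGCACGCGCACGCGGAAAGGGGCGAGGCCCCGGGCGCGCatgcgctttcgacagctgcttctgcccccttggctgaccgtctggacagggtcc
The G and C content of this window was 77% with 45 CG dinucleotides, beside medians of 52.7% and 7 over 32851 promoter windows of the same length. Brap had 121 and 141 CPM in WT, 208, 206 and 159 CPM in TRPV4-KO, and 139, 157 and 117 CPM in GSK219 livers. Each TRPV4-KO liver was above each other liver, TRPV4-KO replicate 3 by little. The log2 fold change against the mean of WT and GSK219 was 0.51 (SE 0.14, adjusted p = 0.20 by edgeR), beside 1.12 (SE 0.11, adjusted p = 0.0046 by edgeR) for Acad10.

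Of the 241 tested members, 98 were proximal and 143 distal of Trpv4. Of the called genes, 1 was proximal and 4 were distal, over a span of 13.3 Mb. Within 1 Mb of Trpv4, 1 of 41 tested members was called in both comparisons. This was Rplp0, which was not called when summed with its copies. From 1 to 2.5 Mb the count called was 0 of 25, from 2.5 to 5 Mb 1 of 43, and from 5 to 10 Mb 3 of 132. On the rest of chromosome 5 it was 0 of 742 genes, and on other chromosomes 11 of 14122.

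A second count used levels alone, taking genes whose 3 TRPV4-KO livers did not overlap the other 5. This held for 25 of 241 members, 10.4%, with 15 above and 10 below, beside 6.44% of all tested genes, with 3.94% above and 2.5% below. Within 1 Mb it held for 7 of 41 members (17.1%), then for 1 of 25 (4.00%), 3 of 43 (6.98%) and 14 of 132 (10.6%) in the bins further out, beside 6.33% on the rest of chromosome 5 and 6.37% on other chromosomes. With both sides together the share was thus highest within 1 Mb and did not fall steadily with distance. By side, from the nearest bin outward, it was 13.3%, 0%, 3.03% and 10.3% proximal. On the distal side it was 19.2%, 7.14%, 20% and 10.8%, highest from 2.5 to 5 Mb, with 2 of 10 genes. No test was made of these shares. The 7 genes within 1 Mb were Coro1c, Mmab, 1500011B03Rik, Unc119b, Coq5, Rplp0 and Gcn1l1, which were named after their values had been seen. Without TRPV4-KO replicate 3, the count within 1 Mb was 18 of 41 (43.9%), beside 29.3% of all tested genes. Without TRPV4-KO replicate 1 it was 8 of 41 (19.5%) beside 9.36%, and without TRPV4-KO replicate 2 it was 9 of 41 (22%) beside 9.91%.

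**Figure D4:**
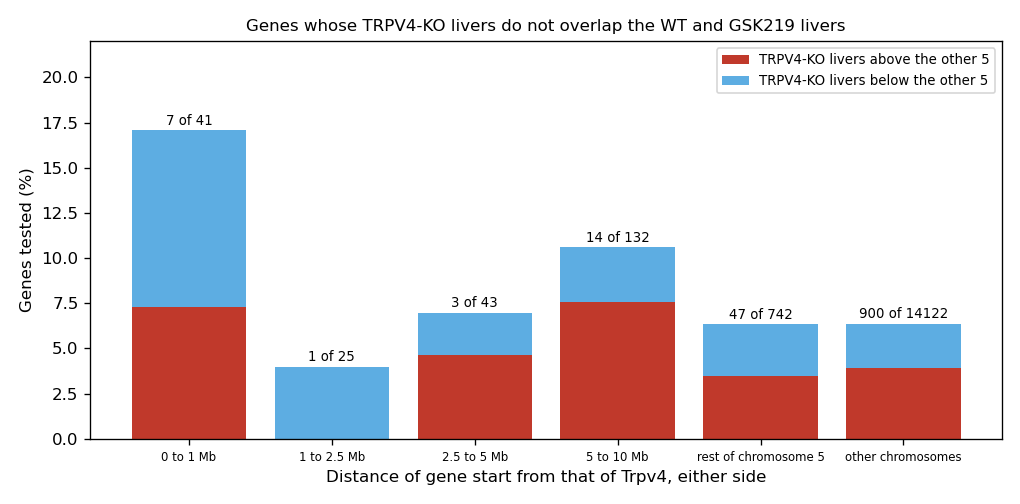
Percent of tested genes whose 3 TRPV4-KO livers lay above (red) or below (blue) the other 5 livers, by distance of the gene start from that of Trpv4, with the rest of chromosome 5 and other chromosomes. Bars are labeled with counts, and the tallest bar is that of 7 of 41 members within 1 Mb.

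The 4 tested members nearest to Trpv4 on each side were not called. Gltp, which encodes a glycolipid transfer protein, starts 0.05 Mb distal. It had 16.1 and 12.6 CPM in WT, 3.86, 4.02 and 6.43 CPM in TRPV4-KO, and 5.16, 9.79 and 9.62 CPM in GSK219 livers. TRPV4-KO livers were below WT and overlapped GSK219, with log2 fold changes of -1.59 (SE 0.33, adjusted p = 0.10 by edgeR) and -0.78 (SE 0.31, adjusted p = 0.77 by edgeR). Mmab, the adenosyltransferase that makes the cobalamin cofactor, starts 0.19 Mb proximal. It had 47.9 and 44.0 CPM in WT, 27.3, 31.0 and 34.3 CPM in TRPV4-KO, and 54.5, 38.4 and 54.6 CPM in GSK219 livers. The TRPV4-KO livers were below all others, with -0.57 against WT (SE 0.18, adjusted p = 0.18 by edgeR) and -0.67 against GSK219 (SE 0.16, adjusted p = 0.36 by edgeR). Fam222a, the closest proximal neighbor, had 0.52 against the mean of both (SE 0.40), with TRPV4-KO livers spread from 3.36 to 11.4 CPM. The remaining 5 had log2 fold changes between -0.28 and 0.13 against that mean. They were Kctd10, an adaptor of cullin ubiquitin ligases, Ube3b, a ubiquitin ligase, Tchp, a keratin-binding protein of the centrosome, Git2, an Arf GTPase-activating protein, and Ankrd13a, a ubiquitin-binding protein.

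Members were then grouped by what their proteins do, in 8 lists with 101 tested members, written from general knowledge with earlier results of these data known. Log2 fold changes in these lists are those of TRPV4-KO against the mean of WT and GSK219, and their median over all tested genes was 0.01, with 0.265% called. In the ribosome and translation list, 1 of 11 tested members was called lower, Rplp0, and none higher, with a median of 0.05. Summed with its copies, Rplp0 had -0.12 (SE 0.10, adjusted p = 0.64 by edgeR) and was not called. The large-subunit protein gene Rpl6 had 212 and 208 CPM in WT, 232, 229 and 203 CPM in TRPV4-KO, and 222, 222 and 212 CPM in GSK219 livers, which overlapped. Pop5, a subunit of RNase P, had 0.38 (SE 0.15), Eif2b1, a subunit of the exchange factor eIF2B, had 0.26 (SE 0.15), and Pus1, a pseudouridine synthase, had 0.23 (SE 0.14).

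Of 17 tested mitochondrial and lipid enzymes, 1 was called higher, Acad10, and none lower, with a median of 0.16. Coq5, a methyltransferase of ubiquinone synthesis, had 19.6 and 19.99 CPM in WT, 27.8, 29.4 and 32.7 CPM in TRPV4-KO, and 23.3, 25.2 and 23.5 CPM in GSK219 livers. Its TRPV4-KO livers were above all others, with 0.46 (SE 0.09, adjusted p = 0.13 by edgeR). Per kilobase of gene length, Hpd, an enzyme of tyrosine breakdown, and Aldh2, the mitochondrial aldehyde dehydrogenase, had the highest levels of all members, with 725 and 383 CPM per kilobase in WT. Rplp0 followed with 244, and Pebp1, Crlf2, Acad10 and Kdm2b had 67.9, 13.7, 5.13 and 1.24. Aldh2, next but one to Acad10, had 1962 CPM ± 79.1 in WT (SD, n = 2), 2338 ± 46.5 in TRPV4-KO (SD, n = 3) and 2192 ± 91.4 in GSK219 livers (SD, n = 3), with 0.17 (SE 0.10, adjusted p = 0.47 by edgeR).

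Of 16 tested genes of chromatin, transcription and DNA repair, 1 was called higher, Kdm2b, and none lower, with a median of 0.01. Kmt5a, the methyltransferase for histone H4 lysine, had 0.52 (SE 0.20), and Suds3, a subunit of the Sin3 corepressor, had 0.34 (SE 0.13). In Kmt5a, TRPV4-KO replicate 3 had 28.5 CPM where the other TRPV4-KO livers had 48.9 and 48.6 CPM, against 23.7 to 34.5 CPM in WT and GSK219 livers. Suds3 showed the same split, with 91.1 CPM in that liver and 115 and 138 CPM in the other two.

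Of 11 tested leukocyte receptors and regulators, 1 was called lower, Crlf2, and none higher, with a median of -0.51. Hcar2, the niacin receptor, had 1.67 and 2.33 CPM in WT, 0.32, 0.78 and 0.64 CPM in TRPV4-KO, and 0.76, 0.66 and 0.90 CPM in GSK219 livers. P2rx7, an ATP-gated channel of macrophages, had 13.1 and 7.75 CPM in WT, 2.47, 3.56 and 6.08 CPM in TRPV4-KO, and 3.52, 5.56 and 6.34 CPM in GSK219 livers. In both genes TRPV4-KO and GSK219 livers overlapped and lay below WT, and in Crlf2 the GSK219 livers lay below both WT livers too but did not overlap the TRPV4-KO livers. Coro1c, an actin-binding coronin, had 35.3 and 28.9 CPM in WT, 25.6, 22.8 and 27.4 CPM in TRPV4-KO, and 30.2, 32.8 and 30.2 CPM in GSK219 livers, with -0.32 (SE 0.11, adjusted p = 0.29 by edgeR).

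Leukocyte markers were lower in TRPV4-KO and GSK219 livers than in WT livers. The 4 leukocyte and Kupffer cell markers (Ptprc, Cd68, Adgre1 and Clec4f) summed to 566 to 599 CPM in WT, 154 to 331 CPM in TRPV4-KO and 165 to 383 CPM in GSK219 livers. All 4 were lower in every TRPV4-KO and every GSK219 liver than in both WT livers, and none was at 0 in any liver. The 6 neutrophil markers summed to 41.6 to 49.0 CPM in WT, 0.95 to 5.62 CPM in TRPV4-KO and 2.14 to 4.12 CPM in GSK219 livers, and 3 of the 6 were at 0 in at least 1 liver. Both endothelial markers (Pecam1 and Stab2) were lower in every TRPV4-KO liver than in both WT livers, with sums of 177 to 208 CPM in WT, 108 to 167 CPM in TRPV4-KO and 135 to 185 CPM in GSK219 livers. Both stellate cell markers (Des and Lrat) were lower in every GSK219 liver than in both WT livers, with sums of 35.0 to 54.0 CPM in WT, 18.0 to 45.5 CPM in TRPV4-KO and 19.7 to 31.6 CPM in GSK219 livers. The hepatocyte sum given above went in the opposite direction through Alb, the other 4 markers overlapping between TRPV4-KO and WT livers. These 5 sums overlapped between TRPV4-KO and GSK219 livers, as did that of 3 markers of cholangiocytes or tumor epithelium (2.98 to 5.21 and 2.45 to 3.17 CPM). In WT livers that sum was 3.38 to 4.27 CPM, above every GSK219 liver. The sum of 4 acinar cell markers was low, at 1.24 to 1.75 CPM in WT, 0.696 to 0.842 CPM in TRPV4-KO and 0.846 to 1.49 CPM in GSK219 livers. TRPV4-KO and GSK219 livers did not overlap in it, nor did they in the level of Crlf2. In whole liver, fewer cells of a type and less RNA per cell cannot be told apart, and the part of either in the level of Crlf2 was not tested.

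The other lists held no called member. The 6 guanylate-binding proteins, GTPases induced by interferon, lie at the proximal edge of the window and had a median of -0.26. Gbp8 had 24.4 and 14.4 CPM in WT, 8.35, 6.03 and 13.3 CPM in TRPV4-KO, and 4.97, 10.5 and 11.8 CPM in GSK219 livers, so that TRPV4-KO and GSK219 livers overlapped. Gbp9, Gbp6 and Gbp4 had -0.30, -0.39 and -0.22, and Gbp10 and Gbp11 had 0.04 and 0.04. Of 13 tested kinases and phosphatases, none was called and the median was -0.05. Pptc7, a mitochondrial phosphatase, had 21.2 and 29.3 CPM in WT, 40.6, 29.6 and 32.6 CPM in TRPV4-KO, and 20.9, 20.8 and 20.3 CPM in GSK219 livers, with 0.59 (SE 0.14, adjusted p = 0.17 by edgeR). Cit, the citron kinase of cell division, had 2.41 and 1.81 CPM in WT, 0.57, 0.91 and 1.04 CPM in TRPV4-KO, and 1.89, 1.33 and 2.03 CPM in GSK219 livers, with -1.18 (SE 0.32, adjusted p = 0.20 by edgeR). In both genes the TRPV4-KO livers lay apart from the other 5, by little in Pptc7. The autophagy kinase gene Ulk1 had -0.33 (SE 0.16) and Dgkq, a diacylglycerol kinase gene, had 0.33 (SE 0.17).

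Of 13 tested genes of the cytoskeleton and cilia, none was called, with a median of -0.02. Tctn2, of the ciliary transition zone, had 0.77 (SE 0.35), Arpc3, of the Arp2/3 complex, had -0.22 (SE 0.12), and Clip1, a microtubule plus-end protein, had 0.21 (SE 0.18). Of 14 tested genes of protein folding, transport and turnover, none was called, with a median of -0.03. Erp29, a chaperone of the endoplasmic reticulum, had -0.21 (SE 0.09), Tmed2, a cargo receptor of the early secretory pathway, had -0.20 (SE 0.10), and Vps33a, of the endosomal HOPS complex, had 0.21 (SE 0.13). Of the 101 listed and tested members, the called ones were the 4 named above, and Pebp1 was on no list.

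**Figure D5:**
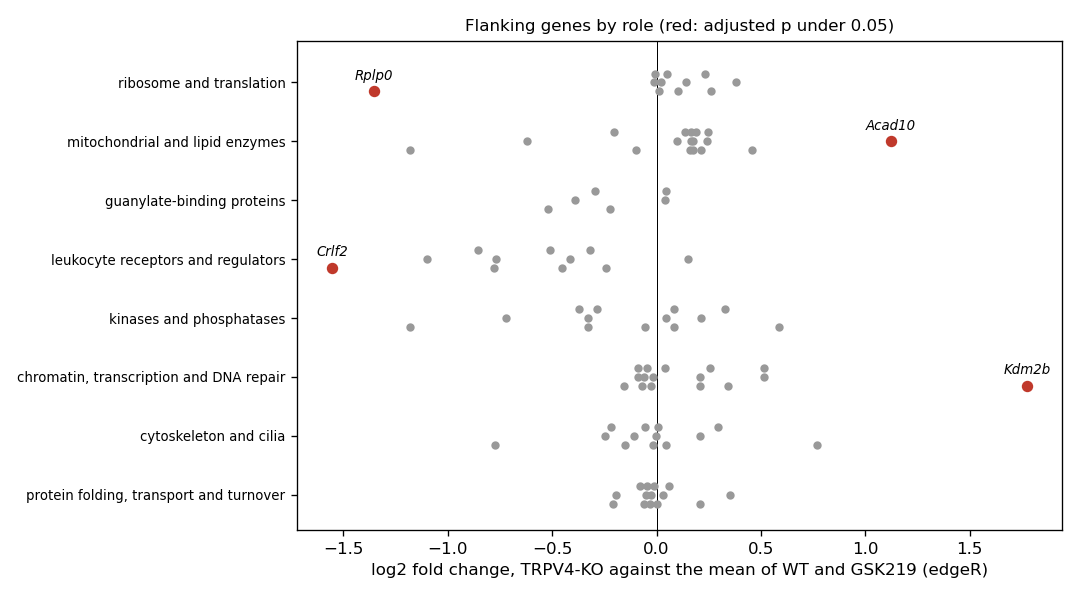
Log2 fold change (edgeR) of TRPV4-KO against the mean of WT and GSK219 for the tested members of 8 role lists, 1 point per gene, with called members in red. Rplp0, Acad10, Crlf2 and Kdm2b are each the highest or lowest of their list, Gltp (-1.18, not called) lies further from 0 than Acad10 on the other side, and the leukocyte list lies mostly below 0.

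Just short of the threshold was Gm16063, a lincRNA 5.00 Mb distal, with 0.99 and 0.99 CPM in WT, 4.81, 3.04 and 3.07 CPM in TRPV4-KO, and 0.57, 1.15 and 0.54 CPM in GSK219 livers. TRPV4-KO livers were above all others, with 2.07 against the mean of WT and GSK219 (SE 0.32, adjusted p = 0.054 by edgeR). DESeq2 called it in both comparisons, together with Gcn1l1 and the 5 genes above. Gm16063 was named after its values had been seen. At the edges of the window, Zfp951 just inside the proximal edge had -0.30 and D930016D06Rik just outside it had 0.09, while Tctn2 just inside the distal edge had 0.77 and Atp6v0a2 just outside had 0.36. Hsd17b13, a lipid droplet protein of hepatocytes, lies 10.7 Mb proximal and so outside the window, and was also named after its values had been seen. It had 123 and 155 CPM in WT, 359, 361 and 344 CPM in TRPV4-KO, and 232, 211 and 191 CPM in GSK219 livers, and was called against WT (1.35, adjusted p = 0.011 by edgeR) but not against GSK219 (0.75, adjusted p = 0.11 by edgeR).

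The comparison of GSK219 with WT involves no deleted allele. Between GSK219 and WT livers, 0 members were called by edgeR, where the share of all tested genes was 0%. At an unadjusted p under 0.05 there were 18 members, 5 higher and 13 lower with GSK219, which is 7.47% beside 8.22% of all genes. DESeq2 called 1 member (0.415%), beside 0.763% of all genes. It was Crybb3, a crystallin gene, with -1.68 on the log2 scale (adjusted p = 0.014 by DESeq2, 0.41 by edgeR). For TRPV4-KO against WT, 39 members (16.2%) had an unadjusted p under 0.05, beside 17.1% of all genes, and for TRPV4-KO against GSK219 there were 24 (9.96%), beside 6.12%. The median size of the log2 fold change of members was 0.27 against WT and 0.18 against GSK219, beside 0.26 and 0.16 over all genes. The median sizes of members and of all genes thus differed by less than 0.02.

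Elsewhere in the genome, 11 genes on 8 chromosomes were called in both comparisons, and none of them was on chromosome 5. Besides Gm8730 and Gm9625, 3 of the 11 (Gm12247, Gm12248 and 2610507I01Rik) lay on chromosome 11 between chr11:58063552-59202385.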

How the data were processed

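RNA-Seq of mouse livers was analyzed. For each liver, the authors deposited counts of reads per gene, without normalization. The submitters' processing notes name HISAT2 2.0.5 and Trim Galore. The counting tool and its use of strand are not given in the sources used here. For 7 other count columns no described sample had a matching name, and they were left out. The libraries of pancreatic stellate cells were not used here.

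The 8 livers were grouped by their labels and fitted together in R 4.3.3 with edgeR 4.0.16 (filterByExpr with a minimum count of 10, TMM, robust quasi-likelihood fit), since the study names no test for the counts. Adjusted p-values are Benjamini-Hochberg values over all tested genes. The SE of a log2 fold change is its size divided by the root of the F statistic. Whether livers of a group came from separate litters is not given, so p-values measure the spread between these livers. DESeq2 1.42.0 and the other alternatives are given in the closing section. Copies were found by 50-base words of GENCODE M21 transcripts on either strand and aligned with Biopython. All 5 called members matched a promoter entry in RefSeq. The fit was also run on simulated counts with known changes, in which no liver stood apart as TRPV4-KO replicate 3 did. The outcome of that run is not reported here.

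The members and lists were chosen with earlier results of these data known. Named genes were the 3 markers Rplp0, Acad10 and Crlf2, every member called in both comparisons, up to 10 members per direction with the largest change among those called whose TRPV4-KO livers do not overlap the other 5 at a mean of at least 1 CPM, the 4 tested members nearest to Trpv4 on each side, and up to 4 members of each list with the smallest p. Neighbors of the called genes, Aldh2, Hpd, Rpl6, Crybb3 and the copies fall outside this rule, and their values were known when they were picked. Of the genes the rule names, 1 is not reported here.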

Additional observations from a re-analysis of the deposited data

How the results depend on the processing

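Against WT, the 5 called members became 13 with DESeq2, 13 with a sex-read term and 9 with the replicate block, beside 5.51%, 3.54% and 3.51% of all genes, where the share of members was 5.39%, 5.39% and 3.73%. Against GSK219 they became 9 with DESeq2 (3.73%, beside 0.902% of all genes) and 3 when only the groups compared were fitted (1.28% beside 0.0779%), where 2 were called in both comparisons (0.855% beside 0.0568%). Against the mean of WT and GSK219, DESeq2 called 13 (5.39% beside 3.04%), and between GSK219 and WT it called 1 in place of 0 (0.415% beside 0.763%). A window of 5 Mb held 2 called members in each of the 3 comparisons of TRPV4-KO and 2 in both (1.83% of the 109 tested there), beside 0.291%, 0.106% and 0.265% of all genes and 0.106% in both. Leaving out 1 liver in turn gave 0 to 22 members against WT, 3 to 7 against GSK219, 4 to 18 against their mean and 0 to 7 in both, beside 0.0189% to 8.64%, 0.0531% to 0.944%, 0.0764% to 4.91% and 0.0189% to 0.903% of all genes, with 0 in both without WT replicate 1 or 2, where the lone WT liver is assumed to vary like the other groups. The 22 and the 18 were those without TRPV4-KO replicate 3, where 8.64% and 4.91% of all genes were called. The count of members within 1 Mb whose livers did not overlap was 7 to 18 (16.7% to 43.9%), beside 7.07% to 29.3% of all genes. RLE size factors, no filter on low counts, and a log2 fold change over 1 as well left 5, 5 and 4 members called in both (2.07%, 1.14% and 1.66%, beside 0.119%, 0.126% and 0.0992% of all genes). In both comparisons the sex-read term called 44 of all genes and the replicate block 20, in place of 16. The replicate block left 4 members, without Acad10 (adjusted p = 0.053 against GSK219 by edgeR). Livers with the same number had deviations that correlated across genes by -0.54 to 0.61 (7 pairs, 5 over 0.1), so the numbers were not taken to pair the livers, and the block has no WT replicate 3. Of 656 values of named genes under alternatives, 609 kept their direction and side of the threshold, and those that changed sign were Tchp (-0.0495 without TRPV4-KO replicate 1 and -0.0279 without GSK219 replicate 2, within -0.0495 to 0.152 over the livers left out) and Gbp4 (0.0499 without TRPV4-KO replicate 2, within -0.807 to 0.0499). The causes of these changes were not tested. Trpv4 had 5 to 53 counts per liver, and the effect of depth on its call was not tested. Sums of Pebp1 with its near-identical pseudogenes and of Acad10 with Acad12 were added after seeing the data.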
